A study of Mus musculus with 6 samples.

Results

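The receptor for the cytokine TWEAK, the cell cycle inhibitor p21 and a group of stress genes linked to the tumour suppressor p53 were followed in the hearts of mice given angiotensin II (Ang II), which constricts vessels and raises blood pressure. The group held 10 genes, and all 10 were found by symbol among the 22556 genes of the expression table. Tnfrsf12a, which encodes the TWEAK receptor Fn14, and Cdkn1a, which encodes p21, had been chosen by their RPKM means, which were highest at 28 days of infusion. Their values are therefore given as a description with no test. The other 8 genes were added as the ligand of that receptor (Tnfsf12), as p53 target genes (Mdm2, Ccng1, Bax, Trp53inp1) and as the GADD45 family (Gadd45a, Gadd45b, Gadd45g), and these were tested.

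Fn14 is a small receptor of the tumour necrosis factor family that is kept low in resting tissue and induced by injury or growth signals, including in heart muscle cells under load. Binding of TWEAK recruits TRAF adaptors and turns on NF-kappaB, by both its canonical and its noncanonical branch. p53 is held down by MDM2, and when it is released it raises genes that stop the cell cycle (Cdkn1a), act in cell death (Bax) or feed back on p53 itself (Mdm2, Ccng1). Cdkn1a can also be raised without p53, and Gadd45 genes answer to several stress pathways.

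The mice were wild type, and strain, sex and age are not given in the labels. Mice of the infused groups carried a minipump under the skin that released 1000 ng of Ang II per kg per min for 7 or 28 days, and the controls are listed at 0 days. Each of the 3 groups held 2 heart libraries. No label states whether the controls had a pump, or that the 2 libraries of a group came from different animals, so p-values measure the spread between libraries, which may be technical. Gene levels are RPKM, reads scaled to transcript length and to the mapped reads of the library, so they can be set side by side between genes.

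Relative depth, read from the steps between low RPKM values, ranged from 0.89 to 1.17 of that of control replicate 1. The log2 ratio between the 2 libraries of a group had an SD of 0.313 for the controls, 0.434 for 7 days and 0.397 for 28 days. The labelled tissue matched its markers, with 7 of 7 cardiomyocyte markers tested and a summed level of 22616 to 28923 RPKM. Atrial myocyte markers varied within groups, from 105 to 1412 RPKM summed in the 2 controls. Changes are differences in log2(RPKM + 0.5), which understate changes of low genes. A gene was called when limma, fitted on the 11096 genes with a mean of at least 1 RPKM, gave a Benjamini-Hochberg adjusted p under 0.05. All 10 genes of the group reached that mean.

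Upstream DNA is shown for the genes whose levels stood apart (Tnfrsf12a, Cdkn1a and Gadd45g) and, beside Cdkn1a, for Mdm2 as another p53 target. The windows are the 250 bases before the RefSeq start on GRCm38.p6, given in the direction of the gene. Tnfrsf12a (chr17:23677450-23677699, minus strand) is shown with its GC boxes (GGGCGG on either strand) in capitals. Cdkn1a (the more upstream of 2 starts, chr17:29090729-29090978, plus strand) and Mdm2 (chr10:117710759-117711008, minus strand) are shown with the 10-base unit of the p53 binding motif in capitals. Gadd45g (chr13:51846425-51846674, plus strand) is shown with its E-box (CACGTG) in capitals.
Tnfrsf12a: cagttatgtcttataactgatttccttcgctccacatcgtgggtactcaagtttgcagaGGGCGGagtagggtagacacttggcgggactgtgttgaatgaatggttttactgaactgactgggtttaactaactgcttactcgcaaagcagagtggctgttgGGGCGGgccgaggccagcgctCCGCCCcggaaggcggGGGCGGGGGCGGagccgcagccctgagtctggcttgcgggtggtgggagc
Cdkn1a: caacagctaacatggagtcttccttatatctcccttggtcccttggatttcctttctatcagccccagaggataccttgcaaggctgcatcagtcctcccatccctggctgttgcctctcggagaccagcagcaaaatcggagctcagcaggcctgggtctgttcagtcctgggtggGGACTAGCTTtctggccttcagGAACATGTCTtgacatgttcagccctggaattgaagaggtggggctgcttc
Mdm2: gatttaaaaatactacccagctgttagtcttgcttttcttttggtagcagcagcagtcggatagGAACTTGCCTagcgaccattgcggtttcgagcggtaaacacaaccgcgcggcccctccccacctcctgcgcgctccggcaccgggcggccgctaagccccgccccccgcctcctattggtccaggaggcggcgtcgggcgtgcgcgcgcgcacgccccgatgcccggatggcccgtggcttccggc
Gadd45g: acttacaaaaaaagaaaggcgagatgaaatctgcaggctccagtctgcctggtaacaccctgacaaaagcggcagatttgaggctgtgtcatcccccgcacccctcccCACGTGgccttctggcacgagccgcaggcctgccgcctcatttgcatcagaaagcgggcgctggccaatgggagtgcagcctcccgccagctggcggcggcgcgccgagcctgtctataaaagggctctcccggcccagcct

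Windows were at hand for 8 of the 10 genes, 9 windows in all. The Tnfrsf12a window held 5 GC boxes, 4 of them within 87 bases of the start, and no p53 unit. At least 1 GC box was found in 6 of the 8 genes and in 32.7% of all 32851 windows. The p53 unit was found in 5 of the 8 genes (Cdkn1a, Mdm2, Ccng1, Bax and Gadd45a) and in 7.13% of all windows. Cdkn1a had 2 of these units, which began 73 and 51 bases before the upstream start, and Mdm2 had 1, at 186 bases. The window before the more downstream Cdkn1a start held 2 GC boxes and no p53 unit. E-boxes were found in Bax, Gadd45b and Gadd45g and in 6.02% of windows. The AP-1 motif (TGANTCA) and a 10-base NF-kappaB motif were found in 0 of the 8, and in 6.75% and 0.98% of windows. Mdm2, Ccng1 and Bax were picked as p53 targets, and Cdkn1a and Gadd45a are also known p53 targets. These counts are therefore a description of letters and not a test.

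The receptor gene was higher at both times of infusion, while no change of the ligand gene passed the test. Tnfrsf12a stood at 20.4 and 24 RPKM in the controls, at 83.5 and 84.2 RPKM at 7 days and at 187 and 120 RPKM at 28 days. The groups did not overlap: both 7 day libraries lay above both controls, and both 28 day libraries above both 7 day libraries. The control, 7 day and 28 day means were 22.2 ± 2.54, 83.8 ± 0.472 and 153 ± 46.9 RPKM (mean ± SD, n = 2), the later ones being 3.78-fold and 6.91-fold the control mean. On the log2 scale these differences were 1.90 and 2.73, and 28 days exceeded 7 days by 0.83. The last value was 0.52 without 28 day replicate 1 and 1.15 without 28 day replicate 2, so the size of the later step differed by over 1.5 times between these libraries. With median ratio scaling or quantile normalization of the libraries the 7 day difference was 1.73. Among all tested genes the 28 day difference lay at percentile 99.9. The gene was chosen by its 28 day mean, which favours such a rank, so it is a description and no test. The summed level of 6 fibroblast markers was 391 to 395 RPKM in the controls, 635 to 653 RPKM at 7 days and 341 to 444 RPKM at 28 days, and none was at 0. Of 4 neutrophil markers 3 were found by symbol and 2 were tested. Mpo was at 0 in all libraries and S100a9 in at least 1, so the sum rests on 2 genes. It was 0.96 to 1.94 RPKM in the controls, 5.89 to 11.5 RPKM at 7 days and 30.6 to 116 RPKM at 28 days. The part of these fibroblast and neutrophil markers in the result was not tested. In bulk heart RNA, more cells of a type and more RNA per cell cannot be told apart, nor can fewer cells and less RNA per cell.

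Tnfsf12, the gene of TWEAK, ranged over no more than 6.14 to 8.69 RPKM. It was at 8.01 and 8.05 RPKM in the controls, at 7.43 and 7.51 RPKM at 7 days and at 6.14 and 8.69 RPKM at 28 days. The 7 day libraries lay just under the controls, and the 28 day libraries lay on either side of all others. The change was -0.10 at 7 days (95% interval -0.47 to 0.28; limma adjusted p = 0.713) and -0.13 at 28 days (95% interval -0.50 to 0.25; limma adjusted p = 0.678). By the ratio of the group means, the receptor gene was 2.76 times as high as the ligand gene in the controls, 11.2 times at 7 days and 20.7 times at 28 days. In single libraries the ratio was 11.2 in both at 7 days, but 30.4 in replicate 1 and 13.8 in replicate 2 at 28 days. The RefSeq Tnfsf12 locus is covered in full by a read-through gene that joins it to Tnfsf13, and 4902 bases of it by an antisense RNA. How reads were shared among these was not given in the sources used here. At its far end Tnfrsf12a overlaps Hcfc1r1 by 80 bases, and Hcfc1r1 itself rose by 0.62 at 7 days (limma adjusted p = 0.0121) and 0.60 at 28 days (limma adjusted p = 0.032), from 60.4 to 63.4 RPKM in the controls up to 102 RPKM.

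**Figure D1:**
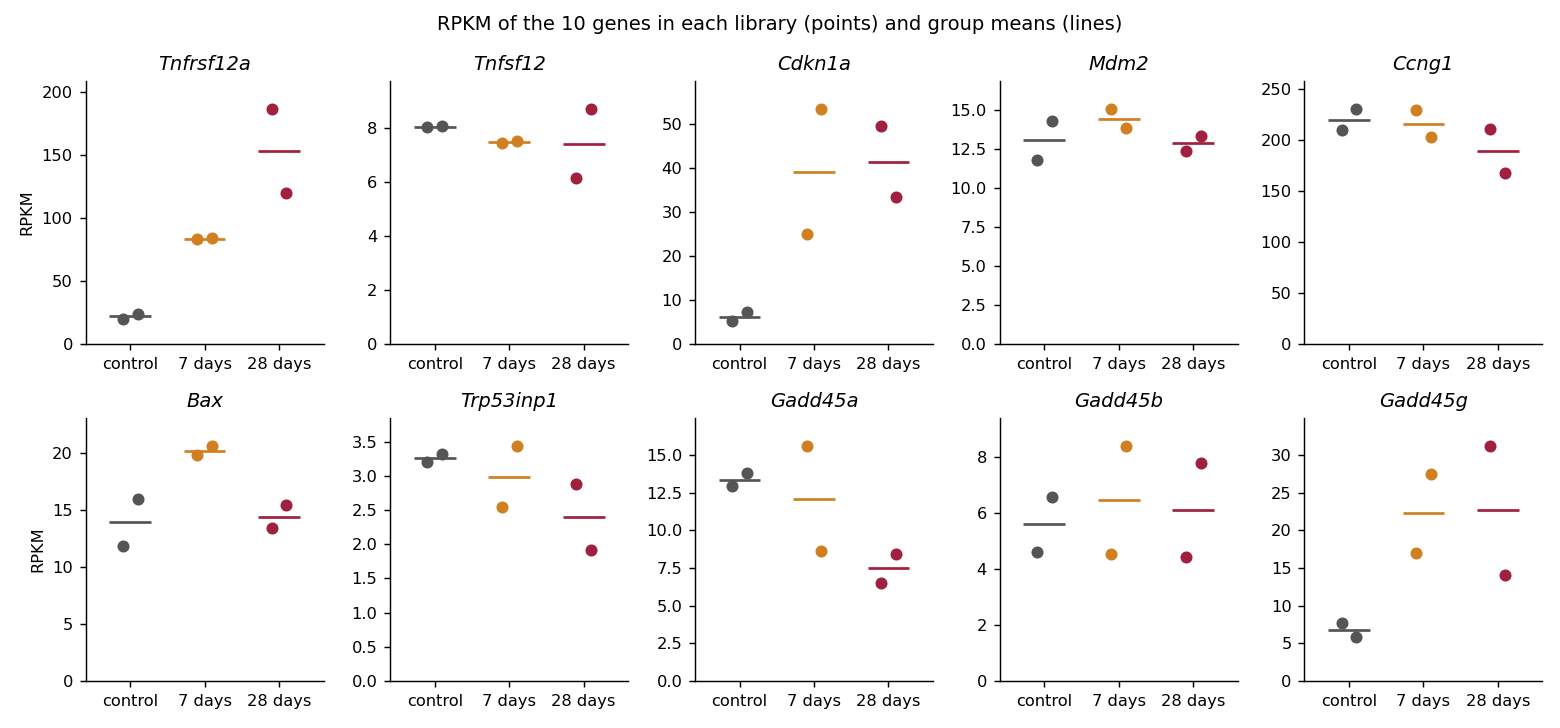
RPKM of each of the 10 genes (vertical axis, from 0) in the 2 libraries of each group (points) with the group mean (line), for control, 7 days and 28 days of Ang II. Tnfrsf12a steps up from 22.2 to 83.8 and 153 RPKM, Cdkn1a and Gadd45g stand above the controls at both times with widely spaced libraries, and Tnfsf12 stays between 6.14 and 8.69 RPKM.

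Cdkn1a was the other gene with a large difference. Its libraries read 5.29 and 7.30 RPKM in the controls, 25.1 and 53.4 RPKM at 7 days and 49.5 and 33.4 RPKM at 28 days. All 4 infused libraries lay above both controls, but the highest single value was in 7 day replicate 2, and the 7 and 28 day libraries overlapped. The means were 6.29 ± 1.43, 39.3 ± 20.1 and 41.5 ± 11.4 RPKM (n = 2), so the 28 day mean was highest by only 1.06-fold over 7 days. On the log2 scale the differences from the controls were 2.47 at 7 days and 2.62 at 28 days. The difference between the 2 times was 0.15, and it turned to -0.39 without 7 day replicate 1 and to -0.13 without 28 day replicate 1. Without 7 day replicate 2 it was 0.69, and without 28 day replicate 2 it was 0.43. A maximum at 28 days therefore held for Tnfrsf12a in each library, and for Cdkn1a by its mean alone.

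None of the 4 p53 target genes was called in any comparison by limma, and only Bax had an unadjusted p under 0.05, at 7 days and between the times. Mdm2, the ubiquitin ligase that degrades p53, read 11.8 and 14.3 RPKM in the controls, 15.1 and 13.9 RPKM at 7 days and 12.4 and 13.4 RPKM at 28 days, and both infused groups overlapped with the controls. Its change was 0.15 at 7 days (95% interval -0.15 to 0.44; limma adjusted p = 0.46) and -0.01 at 28 days (95% interval -0.31 to 0.28; limma adjusted p = 0.959). The 7 day value was -0.02 with either rescaling of the libraries. Ccng1, cyclin G1, had the highest level of the group, at 210.0 and 230.2 RPKM in the controls, 229 and 203 RPKM at 7 days and 211 and 168 RPKM at 28 days. Its change of -0.22 at 28 days did not pass (95% interval -0.54 to 0.09; limma adjusted p = 0.374).

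Bax, which opens the outer mitochondrial membrane in apoptosis, had the highest 7 day change of these 4 genes. It was at 11.9 and 16 RPKM in the controls, 19.8 and 20.7 RPKM at 7 days and 13.4 and 15.4 RPKM at 28 days. The 7 day libraries lay above all others. The 7 day change of 0.54 (SE 0.15) had a 95% interval of 0.18 to 0.90 and missed the threshold over all genes (limma adjusted p = 0.0561). With 28 day replicate 1 or 2 left out it was called (limma adjusted p = 0.0451 and 0.0458) at the same log2 change, since these libraries enter only the shared spread. At 28 days the change was 0.06 (limma adjusted p = 0.851). Trp53inp1, whose nuclear protein assists p53, was the lowest gene of the group, at 3.19 and 3.32 RPKM in the controls, 2.54 and 3.44 RPKM at 7 days and 2.88 and 1.92 RPKM at 28 days. Both 28 day libraries lay under the controls, and the change of -0.39 did not pass (95% interval -0.87 to 0.08; limma adjusted p = 0.301).

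The 3 GADD45 genes, which encode small stress sensors that bind the kinase MTK1 (Map3k4) and PCNA, gave 3 patterns, which were not tested against each other. Gadd45g read 7.70 and 5.88 RPKM in the controls, 17.0 and 27.5 RPKM at 7 days and 31.2 and 14.1 RPKM at 28 days. All infused libraries lay above both controls, and the 7 and 28 day libraries overlapped. It rose at 7 days, by 1.61 on the log2 scale (SE 0.37; 95% interval 0.74 to 2.48; limma adjusted p = 0.0299), from 6.79 ± 1.28 to 22.2 ± 7.42 RPKM (n = 2). The call ended when control replicate 1 or 2 was left out (limma adjusted p = 0.0975 and 0.133), when 7 day replicate 1 or 2 was left out (0.0572 and 0.165), and with median ratio scaling or quantile normalization (0.0579 and 0.0524). At 28 days the change was nearly as large, 1.57 (95% interval 0.70 to 2.44), and missed the threshold (limma adjusted p = 0.0621). Leaving out 28 day replicate 2 brought it past (log2 change 2.13; limma adjusted p = 0.0165). The difference between 28 and 7 days was -0.04 (95% interval -0.91 to 0.83).

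Gadd45a, a classical p53 target, was lower at 28 days without passing the test. It was at 12.9 and 13.8 RPKM in the controls, 15.6 and 8.63 RPKM at 7 days and 6.53 and 8.44 RPKM at 28 days. Both 28 day libraries lay under every other library, while the 7 day libraries spanned the controls. The 28 day change was -0.81 (SE 0.25; 95% interval -1.41 to -0.21), and it did not pass over all genes (limma adjusted p = 0.128). Its locus overlaps a long noncoding RNA by 809 bases, which stayed under 0.302 RPKM in all 6 libraries. Gadd45b read 4.63 and 6.58 RPKM in the controls, 4.56 and 8.41 RPKM at 7 days and 4.43 and 7.81 RPKM at 28 days. In each group the library numbered 2 was the higher, and the spread within groups exceeded the differences between them. Its change was 0.16 at 7 days (95% interval -0.63 to 0.94) and 0.09 at 28 days (95% interval -0.70 to 0.87). Leaving out control replicate 1 turned them to -0.08 and -0.15, and leaving out replicate 2 of the infused group to -0.25 and -0.29.

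Of the 8 tested genes of the group, 1 (Gadd45g) was called at 7 days, against 15.4% of all tested genes (13.2% called higher and 2.27% lower). At 28 days 0 were called by limma, against 4.41% of all genes (2.87% higher and 1.54% lower), and 2 had an unadjusted p under 0.05, Gadd45g above and Gadd45a below the controls. Between 28 and 7 days 0 were called by limma, against 4.67% (0.406% higher and 4.26% lower), and 2, Bax and Gadd45a, were lower at an unadjusted p under 0.05. The share of all genes with an unadjusted p under 0.05 was not counted. Counts at that threshold, here and for the lists below, therefore have no background and are given as a description. The medians of the 8 were 0.06, -0.07 and -0.18 in these comparisons, beside 0.14, 0.01 and -0.12 over all tested genes. At 7 days the libraries of the groups did not overlap for 2 higher genes and 1 lower gene of the 8, against 64.7% of all genes (48.6% higher and 16.1% lower). At 28 days this held for 1 higher and 2 lower genes, against 54.6% (28.8% higher and 25.8% lower). Between the times it held for 3 lower genes, against 50.3% (9.12% higher and 41.2% lower). In each comparison 3 of 8 genes is below the share of all genes, but 8 genes are too few to read this as a difference. Both comparisons with the controls use the same control libraries. The shift of all genes at 7 days depends on scaling: the median of 0.14 became -0.02 with median ratio scaling and -0.04 with quantile normalization. Genes called higher made up 85.3% of calls at 7 days as deposited, 61.2% with median ratio scaling and 57.0% with quantile normalization, and between 28 and 7 days 8.69%, 23.2% and 20.4%. A permutation of 2 against 2 libraries cannot give an exact two-sided p below 0.333, so single genes have no such test.

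**Figure D2:**
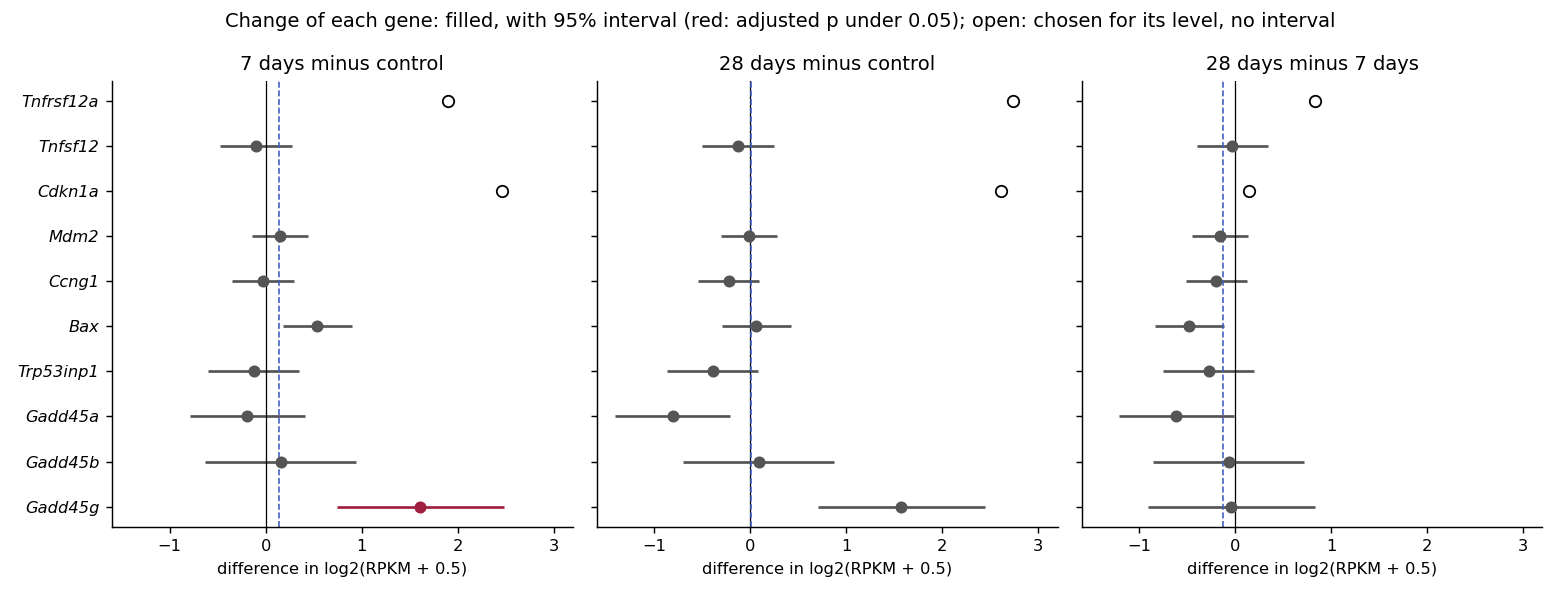
Difference in log2(RPKM + 0.5) for each gene (horizontal axis) in the 3 comparisons, with 95% intervals from limma for the 8 tested genes (filled, red where the adjusted p is under 0.05) and no interval for Tnfrsf12a and Cdkn1a (open). The dashed line is the median of all tested genes. Gadd45g at 7 days is the 1 red point, and Mdm2, Ccng1 and Tnfsf12 have intervals that include 0 in all panels.

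Further p53 target genes were called about as often as genes in general. Of 24 tested genes from a list of 30, 2 rose and 1 fell at 7 days, against 13.2% and 2.27% of all tested genes. By limma 0 were called at 28 days or between the times, against 4.41% and 4.67% of all tested genes. An unadjusted p under 0.05 was reached by 3 higher and 2 lower genes at 28 days, and by 1 higher and 4 lower between the times. The list's median was 0.13 at 7 days, beside 0.14 for all genes, and 0.01 at 28 days, beside 0.01. Phlda3, which opposes AKT signalling, rose by 0.89 at 7 days to 9.90 ± 0.0459 RPKM (limma adjusted p = 0.0186), and Dram1, a lysosomal regulator of autophagy, by 0.64 (limma adjusted p = 0.0356). Sesn1, a stress-induced brake on mTORC1, fell by 0.93 at 7 days, from 77.6 ± 2.54 to 40.4 ± 2.35 RPKM (limma adjusted p = 0.0085). The calls of Phlda3, Dram1 and Sesn1 each ended when any 1 control or 7 day library was left out, with adjusted p reaching 0.111, 0.169 and 0.0584. Dram1 also lost its call with median ratio scaling and quantile normalization (limma adjusted p = 0.081 and 0.0859), where the list's 7 day median was -0.02 and -0.04.

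Among 10 tested genes of p53 and its regulators, 1 rose and 1 fell at 7 days, against 15.4% of all genes called. At 28 days 0 were called by limma, against 4.41%, and 0 had an unadjusted p under 0.05. Trp53, the gene of p53 itself, rose by 0.71 at 7 days, from 4.25 ± 0.121 to 7.28 ± 0.338 RPKM (limma adjusted p = 0.0494). Mdm4, which binds and inhibits p53, fell by 0.79 (limma adjusted p = 0.0155). Neither call held when any 1 control or 7 day library was left out (limma adjusted p up to 0.22 and 0.121). That of Trp53 also ended with either rescaling (limma adjusted p = 0.0988 and 0.102). The activity of p53 is known to be set mainly by the turnover of its protein, which was not measured.

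On the receptor side, 5 genes of TWEAK signalling and NF-kappaB were called higher at 7 days, and 0 of these calls held in every fit that left out 1 library. No test was run on the list as a whole, so the count is a description. Of 22 tested genes from a list of 25, 5 rose and 0 fell at 7 days, against 13.2% and 2.27% of all tested genes. At 28 days, where 4.41% of all genes were called, 0 of the list were called by limma, and an unadjusted p under 0.05 was reached by 3 higher and 1 lower gene. The median was 0.22 at 7 days, beside 0.14 for all genes, and 0.09 at 28 days, beside 0.01. Relb and Nfkb2, the subunits of the noncanonical branch, rose by 1.17 and 0.71 at 7 days (limma adjusted p = 0.00636 and 0.0125). Rela, the canonical subunit, rose by 0.61, and Birc3 and Traf3, which hold the noncanonical kinase NIK in check, by 0.57 and 0.54. Nfkb2 was still 0.57 above the controls at 28 days and did not pass (limma adjusted p = 0.053). Relb lost its call without control replicate 1 (limma adjusted p = 0.0551). Nfkb2 lost it without either control or 7 day replicate 2 (up to 0.109), and Rela, Birc3 and Traf3 without any 1 control or 7 day library (up to 0.127, 0.208 and 0.281). With either rescaling 3 genes of the list were called higher at 7 days, without Birc3 and Traf3, and 1, Nfkb2, at 28 days. Of all tested genes, 709 of 11078 were called higher at 7 days with median ratio scaling and 700 of 11096 with quantile normalization. At 28 days these numbers were 330 and 268. The 7 day median was then 0.06 with median ratio scaling and 0.05 with quantile normalization. Macrophage markers also rose at 7 days, where 6 of 7 were called higher, and none was at 0. Their summed level was 89.2 to 94.2 RPKM in the controls, 157 to 178 RPKM at 7 days and 66.3 to 92.3 RPKM at 28 days. At 28 days 1 of the 7 was called lower, while Relb and Nfkb2 were 0.58 and 0.57 above the controls without passing. At 7 days 3 of 6 fibroblast, 3 of 5 endothelial and 3 of 3 tested proliferating cell markers were called higher as well. The proliferating cell markers summed to 1.41 to 1.46 RPKM in the controls and to 9.58 to 14.4 RPKM at 7 days. They reached the mean for testing mainly through the 7 day group, which favours a higher call there. The part of any of these markers in the result was not tested.

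Other receptor genes of the family had calls at 7 days and none at 28 days. Only 8 of 25 listed TNF receptor genes reached a mean of 1 RPKM. Of these, 3 rose and 1 fell at 7 days, against 13.2% and 2.27% of all genes. At 28 days 0 were called by limma, against 4.41% of all genes, so 0 of 8 is near the general share, and an unadjusted p under 0.05 was reached by 1 higher and 1 lower gene. Tnfrsf1a, the main receptor for TNF, rose by 0.99 at 7 days, from 12 ± 1.48 to 24.2 ± 1.82 RPKM (limma adjusted p = 0.00374), and kept its call without any single library. Tnfrsf1b and the lymphotoxin receptor gene Ltbr rose by 0.74 and 0.57, and Tnfrsf25, a death receptor, fell by 0.83 (limma adjusted p = 0.0439). Tnfrsf25 had means of 1.59, 0.656 and 0.869 RPKM in the controls, at 7 and at 28 days, so it was tested only through its control level. Tnfrsf1b lost its call without either control or 7 day replicate 2 (up to 0.11), Ltbr without any 1 control or 7 day library (up to 0.141) and Tnfrsf25 without either 7 day library (up to 0.167). At 28 days Tnfrsf1a was 0.52 above the controls and did not pass (limma adjusted p = 0.0633).

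Cyclins and CDKs, the proteins that p21 binds, had genes that rose at 7 days. Of 9 tested cyclin, CDK and PCNA genes from a list of 15, 5 rose and 0 fell at 7 days, against 13.2% and 2.27% of all tested genes. At 28 days 0 were called by limma, against 4.41%, and an unadjusted p under 0.05 was reached by 2 higher and 2 lower genes. Ccna2 and Ccnb2, cyclins of replication and mitosis, rose by 2.15 and 2.06 at 7 days, from 0.392 and 0.318 RPKM to 3.53 and 3.04 RPKM, and stood at 0.347 and 0.206 RPKM at 28 days. These low genes reached the mean for testing through the 7 day group alone, so their count is no measure of the list. Ccnd1, cyclin D1, rose by 1.29 at 7 days to 22.2 ± 1.48 RPKM (limma adjusted p = 0.00172), and Ccnd3 and Cdk4 by 0.68 and 0.51. The calls of Ccna2, Ccnb2 and Ccnd1 at 7 days held in each fit that left out 1 library and still tested them. Those of Ccnd3 and Cdk4 were lost without any 1 control or 7 day library (limma adjusted p up to 0.157 and 0.286), and also with either rescaling. Ccna2, Ccnb2 and Ccnd1 were lower at 28 than at 7 days, by 2.22, 2.28 and 0.78, with adjusted p = 0.00683, 0.00895 and 0.0218 by limma. Ccnd1 lost that call without either 7 day library or 28 day replicate 1 (up to 0.165). Markers of proliferating cells moved the same way, with a summed level of 1.41 to 1.46 RPKM in the controls, 9.58 to 14.4 RPKM at 7 days and 1.18 to 1.52 RPKM at 28 days, and with Ccnb1 at 0 in at least 1 library. The Cdkn1a means beside these sums were 6.29, 39.3 and 41.5 RPKM. The part of these markers in the result was not tested.

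No other CDK inhibitor gene was called higher. Of 4 tested from a list of 6, 0 were called higher by limma or at an unadjusted p under 0.05 at either time, and 1, Cdkn1c (p57), fell at 7 days, by 0.79 (limma adjusted p = 0.0177), against 2.27% of all genes called lower. It was 0.49 below the controls at 28 days and did not pass (limma adjusted p = 0.126). All 4 had values below 0 at 28 days, with a median of -0.50, and 3 of them had an unadjusted p under 0.05. The median over all genes was 0.01. The 7 day call was lost without either control or 7 day replicate 2 (limma adjusted p up to 0.107). With either rescaling 2 genes were called lower at 7 days, Cdkn1c and Cdkn1b (p27). Of all tested genes, 450 of 11078 were then called lower with median ratio scaling and 527 of 11096 with quantile normalization.

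The BCL2 family, to which Bax belongs, had genes that rose at both times. Of 14 tested genes from a list of 19, 5 rose and 0 fell at 7 days, against 13.2% and 2.27% of all tested genes, and 2 rose and 0 fell at 28 days, against 2.87% and 1.54%. An unadjusted p under 0.05 was reached by 4 higher and 3 lower genes at 28 days. Bak1 and Bok, which like Bax permeabilize the mitochondrial membrane, rose by 0.83 and 1.05 at 7 days (limma adjusted p = 0.00355 and 0.00399). They also rose at 28 days, by 0.55 and 0.66 (limma adjusted p = 0.0331 and 0.0424), but these 28 day calls were lost without any 1 of the 6 libraries, with adjusted p up to 0.228 and 0.253. Bad, a promoter of cell death, rose by 0.59 at 7 days (limma adjusted p = 0.012), and lost its call without any 1 control or 7 day library (up to 0.109). Bcl2a1b and Bcl2a1d, near-identical survival genes of leukocytes whose reads may not be told apart, rose by 1.60 and 1.27 at 7 days and were at -0.09 and 0.14 at 28 days. Bcl2a1d had means of 0.588, 2.13 and 0.696 RPKM in the controls, at 7 and at 28 days, so it was tested only through its 7 day level. The macrophage markers given above moved with this pair. Of 10 tested kinases of the MTK1, p38 and JNK branch to which GADD45 proteins bind or signal, 1 rose at 7 days, Map3k4 itself, by 0.44 (limma adjusted p = 0.0335), which is near the 13.2% of all genes called higher. That call ended without any 1 control or 7 day library (up to 0.217) and with either rescaling (0.127 and 0.135), and 0 of the 10 were called by limma at 28 days, where 1 had an unadjusted p under 0.05.

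**Figure D3:**
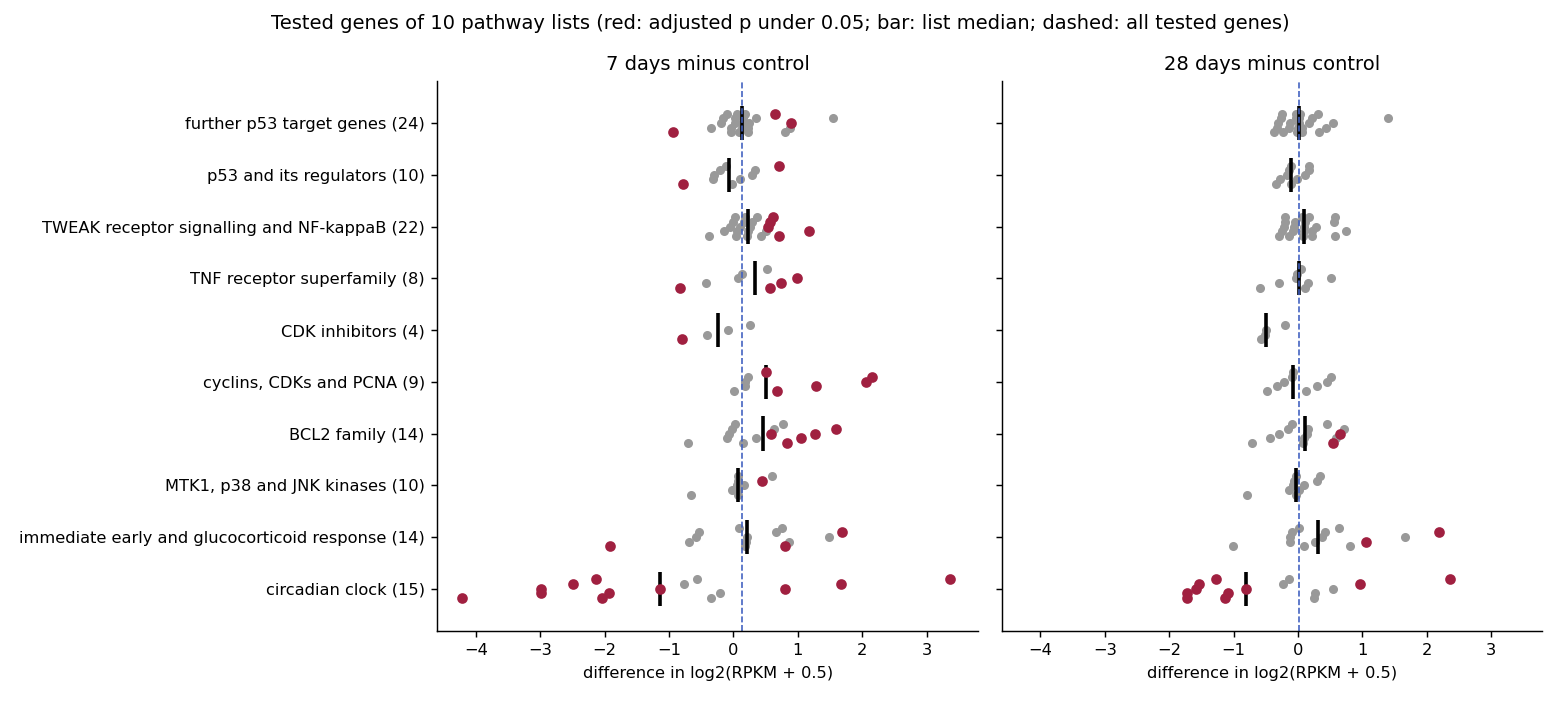
Difference in log2(RPKM + 0.5) from the controls (horizontal axis) for the tested genes of 10 pathway lists at 7 and 28 days; the number tested is in brackets, red points were called by limma, bars are list medians and the dashed line is the median of all tested genes. The 24 further p53 targets centre on the dashed line at both times, and the clock genes spread widest.

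Acute stress genes and the circadian clock, which is known to act on Cdkn1a, were followed as well. Of 14 tested immediate early and glucocorticoid response genes, 2 rose and 1 fell at 7 days, against 15.4% of all genes called, and 2 rose at 28 days, against 4.41%. Atf3, a transcription factor induced by stress, rose by 1.69 at 7 days and by 2.19 at 28 days, from 1.98 ± 0.164 RPKM to 7.47 ± 0.179 and 10.8 ± 1.2 RPKM (n = 2; limma adjusted p = 0.000667 and 0.00264), and kept both calls without any single library. The kinase gene Sgk1 rose by 0.81 and 1.05 (limma adjusted p = 0.0411 and 0.0396). Zbtb16, a glucocorticoid target, fell by 1.92 at 7 days (limma adjusted p = 0.0172), and lost its call without either control (up to 0.0896). Sgk1 lost the 7 day call without either control or 7 day replicate 2 (up to 0.2) and with either rescaling (0.102 and 0.112), and the 28 day call without any 1 control or 28 day library (up to 0.17) and with quantile normalization (0.0634). Of 15 clock genes, 3 rose and 8 fell at 7 days, against 15.4% of all genes called, and 2 rose and 8 fell at 28 days, against 4.41%. In the fits that each left out 1 library, 10 of the 11 calls at 7 days held throughout, but of the 10 calls at 28 days only 1, Arntl. Dbp, a clock output factor, fell by 4.22 at 7 days and by 1.72 at 28 days (limma adjusted p = 0.000233 and 0.00933), and Arntl (BMAL1) rose by 3.37 and 2.36 (limma adjusted p = 0.000944 and 0.00991). Arntl had means of 0.526, 9.51 and 4.47 RPKM in the controls, at 7 and at 28 days. It was therefore tested only through its infused groups, which favours a higher call. The 28 day call of Dbp was lost without control replicate 1 (limma adjusted p = 0.0769). The hour at which hearts were taken is not given in the labels, and the part of the clock in the Cdkn1a, Gadd45a and Gadd45g values was not tested.

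Among 721 tested genes that varied with an SD of at least 0.5 over the 6 libraries, the 5 whose log2 levels followed Tnfrsf12a most closely were Igfals, Hspb7, Atf3, Fstl3 and Hspb1, with Pearson r between 0.988 and 0.994. Hspb7 and Hspb1, small heat shock proteins of muscle, had control, 7 day and 28 day means of 362, 694 and 947 RPKM and of 47.2, 88.2 and 129 RPKM. Fstl3, a secreted binder of activins, had means of 1.04, 4.13 and 6.52 RPKM. Like Tnfrsf12a, these genes had their highest mean at 28 days, which the measure of likeness favours.

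For Cdkn1a the 5 closest were Errfi1, Itga5, Cyp1b1, Ankrd23 and Mapk4, with Pearson r between 0.975 and 0.984. Errfi1, an inhibitor of the EGF receptor, had means of 5.74, 13.2 and 14.7 RPKM, and Ankrd23, a muscle ankyrin repeat protein of the sarcomere, of 63.4, 296 and 334 RPKM. Itga5, the integrin chain that binds fibronectin, was at 10.2, 20.8 and 21.4 RPKM. The 6 libraries form 3 groups, so these r values mainly reflect the differences between groups and are given as a description, with no p.

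**Figure D4:**
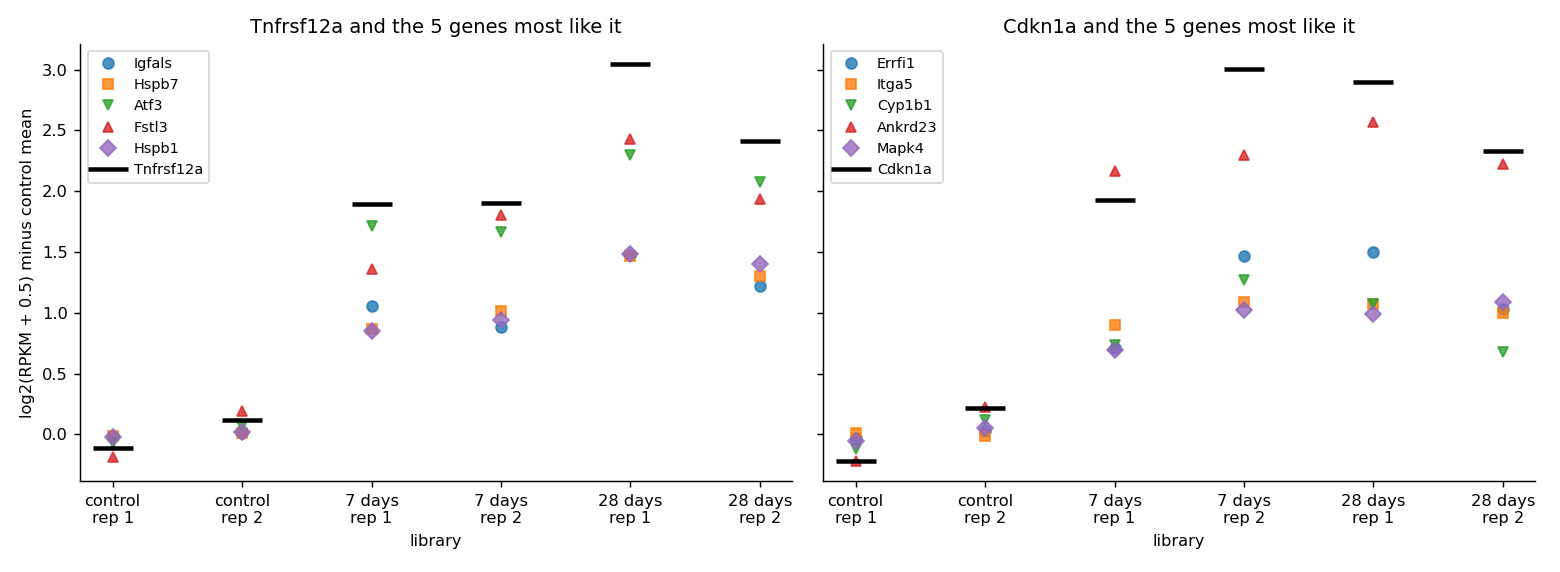
Level in each library as log2(RPKM + 0.5) minus the control mean (vertical axis) for Tnfrsf12a (left) and Cdkn1a (right), drawn as black dashes, with the 5 genes most like each as coloured symbols. On the left all genes are highest in the 28 day libraries, and on the right Cdkn1a and Errfi1 are nearly as high in 7 day replicate 2 as in 28 day replicate 1, or higher.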

How the data were processed

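RNA from mouse hearts was sequenced in 6 libraries, 2 each for control, 7 and 28 days of Ang II. The values are RPKM per gene, as deposited by the authors in 1 table. The submitters' processing notes name the builds mm8 and mm9 and the tools HTSeq, DESeq2, Bowtie 0.12.9 and TopHat2 2.0.12, without their roles. The tool that computed RPKM, the annotation and the strand setting of the counting were not given in the sources used here.

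RPKM values are not counts, so log2(RPKM + 0.5) was fitted with limma 3.58.1 (R 4.3.3; trend, moderated variances, 3 residual degrees of freedom) to the 11096 genes with a mean of at least 1 RPKM. Group means of all 6 libraries were used, and p-values were adjusted by Benjamini-Hochberg over all tested genes. The filter drops low genes and can keep a gene that is high in 1 group alone. The 2 libraries of a group limit the precision, and total read numbers are not in the table. On simulated data for the 7 day comparison (11096 genes, 200 changed), 92% of 2-fold and 99% of 4-fold changes were called, with 20 unchanged genes called. For 28 days and between the times, 25 and 11 unchanged genes were called. The simulated noise was normal, independent between genes and drawn from the fitted variances. These shares therefore check the fit and are no measure of power in the real data, where a missing call does not show that a gene was unchanged.

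The 10 genes, the pathway lists and the markers were chosen with earlier results of these data known. Named are the 10 genes, up to 4 called genes per list and comparison with the largest change, and the 5 genes most like Tnfrsf12a and Cdkn1a by Pearson correlation. Leaving out predicted genes, this ranked genes with an SD of at least 0.5. Traf3, Cdk4 and Bad at 7 days complete a count, and values of named genes that were not called, with Hcfc1r1, were added after they were seen. Alternatives varied the pseudocount, filter, scaling, samples, variance model, replicate term and call rule and left out each library. Promoter windows come from RefSeq GRCm38.p6, another build than that of the table, and were joined by symbol.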

Additional observations from a re-analysis of the deposited data

Results flagged for a closer look

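Of the pathway lists, 14 genes differed between 28 and 7 days by limma over all tested genes, a test of the difference between the infused groups themselves. Of all tested genes 4.67% were called, 0.406% higher and 4.26% lower. No test was run on the lists, so the count is a description. The rule for named genes takes 13 of these 14 genes, and the other, Nr1d2, is given below after its value was seen. None of the 8 tested genes of the group was called between the times, and Tnfrsf12a and Cdkn1a were not tested. Cell cycle genes were lower at 28 days: Ccnb2 by a log2 change of -2.28, Ccna2 by -2.22 and Ccnd1 by -0.78. In the BCL2 family, Bcl2a1b changed by -1.69, Bcl2a1d by -1.13 and Bad by -0.50. Bcl2a1d, Ccna2 and Ccnb2 reached the mean of 1 RPKM for testing only through the 7 day group, which favours a lower value at 28 days. In the TNF receptor family, Cd40 changed by -0.82 and Tnfrsf1b by -0.64. Of the macrophage markers 5 of 7 were called lower between the times, against 4.26% of all tested genes. So were 3 of 6 fibroblast and 3 of 3 tested proliferating cell markers. The proliferating cell markers also reached the mean for testing mainly through the 7 day group, which favours a lower value at 28 days. The part of these markers in the result was not tested.

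Clock genes were higher at 28 than at 7 days. Dbp changed by 2.51, Per2 by 1.91, Per3 by 1.27, Tef by 0.998 and Gm129, the gene symbol the table gives, by 0.91. Nr1d2 changed by 0.65 (limma adjusted p = 0.0421), and lost its call without any 1 of the 6 libraries (up to 0.191). The calls of Dbp, Per2, Ccna2 and Ccnb2 held in each fit that left out 1 library and still tested them. Bad and Tnfrsf1b lost theirs without any 1 of the 6 libraries (limma adjusted p up to 0.205 and 0.236). Cd40 and Gm129 lost theirs without any library but 28 day replicate 2 (limma adjusted p up to 0.22 and 0.124). Bcl2a1b and Per3 lost theirs without either 7 day library (limma adjusted p up to 0.0735 and 0.164). Tef lost its call without 7 day replicate 2 (0.0806), Bcl2a1d without 28 day replicate 1 (0.053), and Ccnd1 without either 7 day library or 28 day replicate 1 (0.165). With either rescaling, the calls of Cd40, Tnfrsf1b and Bad between the times were lost (limma adjusted p from 0.0837 to 0.162).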

How the results depend on the processing

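With 2 libraries a group, single libraries moved many results. The number of genes called was 1713 at 7 days, 489 at 28 days and 518 between the times, and leaving out 1 library gave 405 to 2298, 33 to 447 and 27 to 731. Among the 8 tested genes of the group, 0 to 2 were called at 7 days, 0 to 1 at 28 days and 0 between the times. The cause was not tested; a fit without a library has fewer samples. With no filter on low values, 61 genes were called at 28 days and 264 between the times. With a mean of at least 5 RPKM 295 were called between the times, with median ratio scaling 276 and with quantile normalization 265. Fitting only the 2 groups compared gave 234 at 28 days and 287 between the times. An unadjusted p under 0.05 with a change over 2-fold gave 445 at 7 days, and with a change over 1.5-fold 808 at 28 days and 859 between the times. At 7 days, 0 of the 8 genes were called with no filter, with median ratio scaling or with quantile normalization, and 2 (Gadd45g and Bax) when only the 2 groups were fitted. In these 4 settings, in that order, 1337, 1159, 1227 and 2240 of all genes were called at 7 days. The unadjusted rule gave 2 of the 8 at 28 days and 1 between the times.

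Of 40 calls of the pathway lists at 7 days, 14 at 28 days and 14 between the times, 16, 2 and 2 held in every fit that left out 1 library, counting as lost a gene that fell under the filter. With median ratio scaling 31, 14 and 11 held, and with quantile normalization 31, 13 and 11.

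Replicate 1 deviations correlated at 0.149 between control and 7 days, -0.0193 between control and 28 days and -0.0139 between 7 and 28 days. These are low correlations over all genes, and they cannot exclude a pairing or batch by number that acts on some genes. With the replicate number as a block, 1496, 359 and 354 genes were called, and 2 of the 8 at 7 days, Bax included (limma adjusted p = 0.0404).

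Signs turned for small changes. Between the times, median ratio scaling and quantile normalization gave Tnfsf12 0.12 and 0.14, Gadd45b 0.073 and 0.097, and Gadd45g 0.11 and 0.056. At 7 days they gave Mdm2 -0.017 and -0.020, and quantile normalization gave Gadd45b -0.015. Leaving out 1 library gave, at 7 days, Ccng1 -0.11 to 0.061, Gadd45a -0.60 to 0.22, Gadd45b -0.25 to 0.56 and Trp53inp1 -0.31 to 0.067. At 28 days it gave Tnfsf12 -0.36 to 0.11, Mdm2 -0.15 to 0.12, Bax -0.14 to 0.27 and Gadd45b -0.29 to 0.46. Between the times it gave Tnfsf12 -0.26 to 0.20, Gadd45b -0.48 to 0.34 and Gadd45g -0.60 to 0.52. The cause was not tested.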
